A study of Mus musculus with 6 samples.

Results

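The genes examined were Hmga1, Hmga2, Lin28a, Lin28b, Igf2bp1, Igf2bp2 and Igf2bp3, 7 of 21755 protein-coding genes, chosen by name as the Hmga, Lin28 and Igf2bp families of embryonic growth genes. A peak of H3K4me1 was counted for a gene when it overlapped the gene body or the 5 kb on either side, or when it lay up to 100 kb away with that gene's start site as its nearest protein-coding start site. H3K4me1 is histone H3 with 1 methyl group on lysine 4, a mark of enhancers and of the flanks of promoters. It was profiled by CUT&Tag, in which an antibody brings a transposase to the mark. The 3 samples were wild-type whisker pads of strain B6/J2 at embryonic day 12, taken as whole pads and dissociated to single cells, so every cell type of the pad enters 1 signal. Another 3 samples carried control IgG and were not analysed here.

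Hmga1 and Hmga2 encode small chromatin proteins that bind the minor groove of AT-rich DNA. Lin28a and Lin28b encode RNA-binding proteins that block the maturation of the let-7 microRNAs. Igf2bp1, Igf2bp2 and Igf2bp3 encode proteins that bind mRNAs, among them that of the growth factor Igf2. In embryos let-7 represses members of all 3 families, while the Lin28 proteins hold let-7 back. Genes of these families are used widely in the early embryo and most of them are switched off in adult tissue.

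The 3 peak lists held 12969 to 16788 peaks each, with the top 1% of signal blocks kept in each replicate. The total signal of a peak is the fragment pileup summed over its bases, and it was not scaled to depth. It is therefore given below as a percentile within its own list, or as a share of all signal in the list, per 100000. A gene without a peak lay below the limit of the list and is not shown to lack the mark. With 1 group of 3 replicates the design holds no contrast, so no test was made and values are given beside those of all protein-coding genes.

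The titles of all 3 samples give whisker pad, but the source name of replicates 2 and 3 gives adult kidney. Marker genes were counted by a peak in the body or the 5 kb on either side. Their percentiles are those of the strongest assigned peak, which can lie up to 100 kb away. Of 12 facial mesenchyme markers, 12, 12 and 10 had a peak in replicates 1, 2 and 3. Dlx1 and Dlx2 were without one in replicate 3. Of 12 adult kidney markers, 4, 4 and 2 did, while 8, among them Umod, Slc12a3, Slc34a1 and Lrp2, had none in any replicate. Slc12a1 and Cubn had a peak in all 3, with Cubn at percentile 59.8, 54.0 and 66.5, and Aqp2 and Pax2 had one in replicates 1 and 2. Of 10 surface ectoderm markers, 6, 6 and 2 did, and Krt14, Epcam, Esrp1 and Perp had none in any. Grhl3 and Trp63 had a peak in all 3, with Grhl3 at percentile 95.5, 96.2 and 91.1. Over all protein-coding genes the shares were 24.9, 22.6 and 19.6%.

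Replicate 3 stood apart by GC content. Regions with a peak in each replicate were ranked by GC content and cut into 10 bins. The median log2 ratio of the share of signal in replicate 3 to that in replicate 2 went from 0.92 in the lowest bin (median GC content 41.4%) to -0.90 in the highest bin (54.5%). The same ratio of replicate 1 to replicate 2 went from -0.05 to -0.24. The same ratio for the regions of each gene is given below.

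The peaks of the 7 genes merged into 16 regions of 19251. A peak of every replicate was present in 11 of them, of 2 replicates in 0 and of a single replicate in 5. Over all regions assigned to a protein-coding gene, 46.5% had a peak in all 3. The highest pileup of each of the 11 shared regions lay in an intron. To show the DNA beneath the marked sites, windows of 200 bp around the highest pileup are printed for the strongest or most precisely placed region of each gene with a shared peak. All are on the plus strand of GRCm38 (mm10), and capitals mark the bases of highest pileup in the replicates whose maximum fell in the window.

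The window of Igf2bp1 is chr11:95982812-95983011, in intron 2, with the same 2 bases highest in all 3 replicates. Those of Hmga2 are chr10:120461845-120462044 and chr10:120428967-120429166, both in intron 3. The first of these held the maximum of 3 replicates and the second that of 2. The window of Igf2bp3 is chr6:49210525-49210724 (intron 2), that of Lin28a is chr4:134017210-134017409 (intron 2) and that of Hmga1 is chr17:27559025-27559224 (intron 1), and each held the maximum of 2 replicates.
Igf2bp1, intron 2: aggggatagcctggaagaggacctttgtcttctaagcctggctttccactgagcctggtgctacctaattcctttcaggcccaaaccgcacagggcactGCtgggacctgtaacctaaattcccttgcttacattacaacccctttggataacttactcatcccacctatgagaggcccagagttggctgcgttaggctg
Hmga2, intron 3 near exon 3: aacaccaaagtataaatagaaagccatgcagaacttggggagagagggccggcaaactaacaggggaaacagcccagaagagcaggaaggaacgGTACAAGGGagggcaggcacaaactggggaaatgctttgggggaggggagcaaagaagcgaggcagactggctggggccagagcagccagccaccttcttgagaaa
Hmga2, intron 3, strongest region: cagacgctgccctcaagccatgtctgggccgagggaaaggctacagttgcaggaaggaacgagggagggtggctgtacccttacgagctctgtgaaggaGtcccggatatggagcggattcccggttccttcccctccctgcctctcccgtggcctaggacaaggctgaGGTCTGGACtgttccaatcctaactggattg
Igf2bp3, intron 2: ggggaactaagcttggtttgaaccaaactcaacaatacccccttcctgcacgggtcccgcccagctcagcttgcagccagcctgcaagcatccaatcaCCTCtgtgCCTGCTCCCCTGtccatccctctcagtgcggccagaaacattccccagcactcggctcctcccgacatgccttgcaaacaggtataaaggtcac
Lin28a, intron 2: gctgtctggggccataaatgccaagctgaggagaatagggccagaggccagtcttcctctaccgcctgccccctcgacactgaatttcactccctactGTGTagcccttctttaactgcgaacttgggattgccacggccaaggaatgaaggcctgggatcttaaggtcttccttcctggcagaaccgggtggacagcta
Hmga1, intron 1: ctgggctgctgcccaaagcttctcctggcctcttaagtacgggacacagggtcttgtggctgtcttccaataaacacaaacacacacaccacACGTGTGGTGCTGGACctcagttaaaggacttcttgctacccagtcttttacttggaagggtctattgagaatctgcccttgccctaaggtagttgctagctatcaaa

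Of these windows, those of Igf2bp1, Igf2bp3 and Lin28a held 0% repeat-masked bases, those of Hmga2 12 and 13.5%, and that of Hmga1 30.5%. None of them overlapped an exon of its gene. Their GC content was 52, 55, 59.5, 57.5, 55.5 and 49.5% in the order printed. Short letter strings bound by classes of transcription factor were searched on both strands of the windows of all 11 shared regions. The letters of TCF and LEF factors, CTTTGAT, were in 0 windows, against 2.58% of the windows of all shared regions. The homeodomain letters TAATTA were in 0, against 2.46%. The AP-1 letters TGANTCA were in 0, against 6.38%. The E-box letters CAGCTG were in 1, at the 3′ end of Hmga2, against 17.5%. With 11 windows, these counts are too few to show a lack of any of the strings. Among the 11, the windows chr10:120385323-120385522 in Hmga2 and chr11:95989547-95989746 in Igf2bp1 held the maximum of 1 replicate alone.

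The number of these genes with a peak in the body or the 5 kb on either side was 6, 5 and 5 in replicates 1, 2 and 3. Hmga1, Hmga2, Lin28a, Igf2bp1 and Igf2bp3 had one in all 3 replicates. This is 5 of 7 genes, against 15.5% of all protein-coding genes. With the stronger 50% of each list it was 3 of 7, and the share of all genes at that cut is not given here. In the full lists no peak in any replicate was found for 1 of 7, against 71.2% of all protein-coding genes. Longer genes held peaks more often. The share in all 3 replicates was 8.35% for genes under 20 kb, the class of Hmga1 and Lin28a. It was 15.3% for genes of 20 to 80 kb, the class of Igf2bp1, and 34.5% for genes of 80 to 160 kb, the class of Hmga2, Lin28b, Igf2bp2 and Igf2bp3. Each family thus had a marked member, and in the Lin28 and Igf2bp families another member had no peak in at least 2 replicates.

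**Figure D1:**
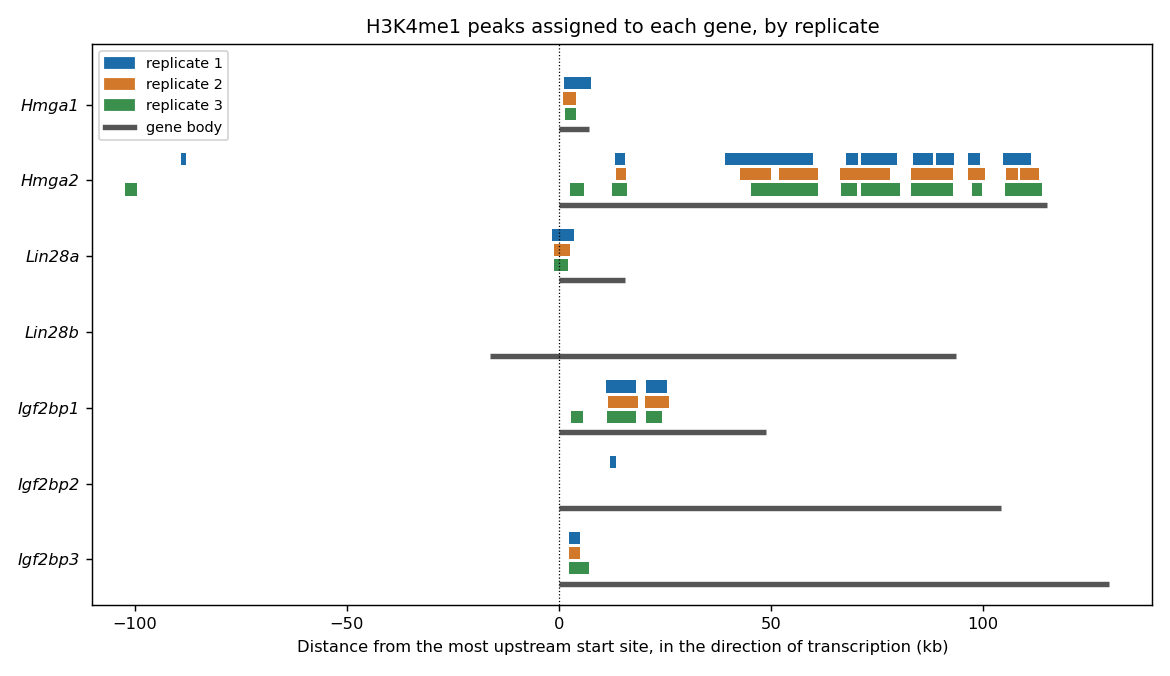
Peaks of each gene by replicate, placed by distance from the start site in the direction of transcription (kb). Bars are peaks coloured by replicate and the thin line is the gene body. Hmga2 held 9, 8 and 9 peaks, and Lin28b held 0 in each replicate.

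Hmga2 lies at chr10:120361275-120476469 on the minus strand, 115 kb long with 5 exons. It held 9, 8 and 9 peaks in replicates 1, 2 and 3, merged into 9 regions of which 6 were in all 3 replicates. As many shared regions as this were held by 1.33% of all protein-coding genes and by 3.22% of genes of 80 to 160 kb. Peaks covered 45.5, 45.0 and 49.0% of the gene body, with a mean of 46.5 ± 2.16% (SD, n = 3).

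The signal of Hmga2 was 90.0, 87.7 and 103.9 per 100000, with a mean of 93.8 ± 8.78 (SD, n = 3). It ranked 183 of 21755 genes, between Bcl9l at 93.9 and Gm20696 at 93.8. Hmga2 alone carried 67.4 ± 2.70% (SD, n = 3) of the signal of the 7 genes.

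Most of this lay far from the promoter, in intron 3, an intron of 88.0 kb that separates the exons of the DNA-binding hooks from the last exons. The strongest region, chr10:120415443-120437172, is 21.7 kb long and begins 39.3 kb from the start site. It stood at percentile 98.9, 94.2 and 98.7 in the 3 lists, with a mean of 97.3 ± 2.66 (SD, n = 3). In replicate 2 it was called as 2 peaks, of which the stronger is given. Its highest pileup was at 120429066 in replicate 1 and at 120429136 to 120429144 in replicate 2, both in the window printed above. In replicate 3 it was at 120418018 to 120418052, so that the midpoints spread over 11105 bp. The other peak of replicate 2 had its own maximum nearer to that of replicate 3, at 120417979, where its pileup was 121 against 153 at the first place.

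The shared region of Hmga2 nearest to the start site, chr10:120460418-120463868, covered the whole of exon 3 in all replicates. Its percentiles were 44.7, 28.3 and 66.5, with replicate 3 the highest. Its highest pileup spanned 120461944 to 120461947 in replicate 1 and 120461939 to 120461942 in replicate 2. Replicate 3 had it at 120461941 to 120461947, which made a spread of 5 bp between midpoints. Its GC content was 43.0%, and its log2 ratio of replicate 3 to replicate 2 was 0.95, against a median of 0.61 in its GC bin.

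The other shared regions of Hmga2 were 4 in number, with mean percentiles from 48.1 to 92.4. Over these and the strongest region, the log2 ratio of replicate 3 to replicate 2 ran from -0.39 to 0.43, with bin medians from 0.13 to 0.61. The one at the 3′ end of the gene reached into the last exon in replicates 2 and 3, where peaks covered 32.2 and 55.8% of that exon, and in replicate 1 it covered 0%. Of these 4 regions 3 also overlapped the noncoding gene 1700006J14Rik, and 1 overlapped 9230105E05Rik.

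At the start site itself Hmga2 had no peak. The nearest peak was 13.4 and 13.5 kb downstream in replicates 1 and 2. In replicate 3 an added peak at chr10:120470428-120473879 lay 2.59 kb downstream, over exon 2, at percentile 19.2. Its GC content was 38.1%, below that of all but 1.91% of regions, and the part of GC content in this call was not tested. Upstream, replicate 1 had 1 peak at 88.0 kb and replicate 3 had 1 at 99.4 kb, at percentiles 27.5 and 19.1, and these did not overlap.

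**Figure D2:**
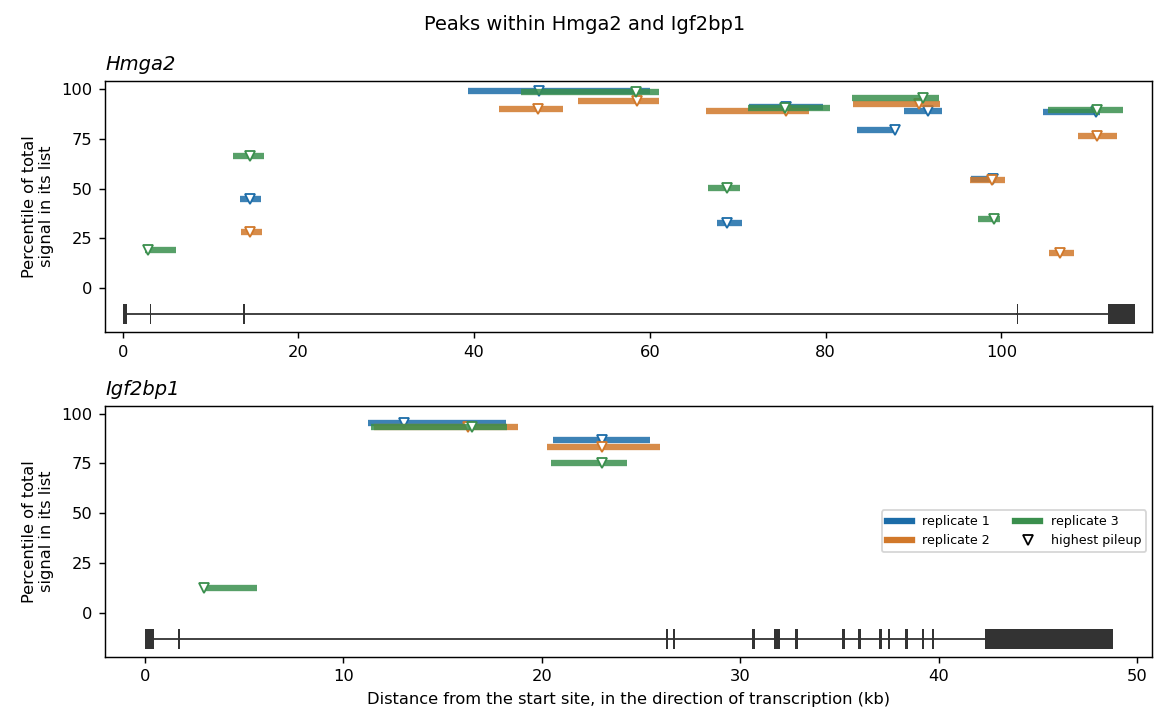
Peaks within Hmga2 (top) and Igf2bp1 (bottom). The horizontal axis is distance from the start site (kb), the vertical axis the percentile of total signal within the list, bars are peaks by replicate, triangles the highest pileup, and boxes exons. The strongest Hmga2 region sits near percentile 97.3 within the long intron 3, and both shared Igf2bp1 regions sit in intron 2.

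Hmga1, at chr17:27556497-27563674 on the plus strand, is 7.18 kb long. It held 1 peak in each replicate, merged into chr17:27557397-27564194. Its percentiles were 78.1, 55.3 and 44.9, a mean of 59.4 ± 17.0 (SD, n = 3), with replicate 1 well above the other two. The peak of replicate 1 covered 81.1% of the gene and those of replicates 2 and 3 covered 42.9 and 34.8%. All 3 began downstream of the first start site, and the nearest of the 14 annotated start sites was 702 bp from the region. The peak came within 1 kb of a start site in replicate 2 alone, a distance met by 11.7, 11.5 and 8.02% of all protein-coding genes in replicates 1, 2 and 3.

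The signal of Hmga1 was 6.73, 5.01 and 4.34 per 100000, a mean of 5.36 ± 1.24 (SD, n = 3), rank 3549. The region also overlapped the adjoining gene AI413582, which was given the same signal, so the peak cannot be ascribed to Hmga1 rather than to its neighbour. Calml4 stood next above, with a difference of 0.00093. The GC content of the region was 55.7%, and its log2 ratio of replicate 3 to replicate 2 was -0.21, against -0.90 in its bin.

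Lin28a, at chr4:134003330-134018841 on the minus strand, is 15.5 kb long and was the gene with a peak over its start site in all replicates. The region chr4:134015331-134020404 ran across the start site at 134018841. A peak within 1 kb of a start site in all 3 replicates was therefore found in 1 of 7 genes, against 5.51% of all protein-coding genes. Among genes with a peak in the body or the 5 kb on either side in all 3, the share was 35.5%, and of the 5 such genes here it was Lin28a alone. With 2.5 kb around the start site the count was 3 of 7, and with the stronger 50% of each list it was 0. The 5.51% holds for 1 kb and the full lists, and the share of all genes at these other settings is not given here.

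The percentiles of the Lin28a peak were 68.1, 52.1 and 16.6, a mean of 45.6 ± 26.3 (SD, n = 3), and the mean was 23.7 by signal divided by length. Replicate 3 was far below the others, with a peak at 1.18 times the total signal of the weakest of its list, against 2.87 and 1.92 times in replicates 1 and 2. Its GC content was 55.2%, with a log2 ratio of replicate 3 to replicate 2 of -0.63 against -0.90 in its bin, and the part of GC content in the low value was not tested. The highest pileup was in intron 2, 1.53 kb downstream of the start site, at 134017308 in replicate 1 and 134017308 to 134017311 in replicate 3. In replicate 2 it was at 134017492 to 134017495.

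The signal of Lin28a was 4.98, 4.71 and 3.06 per 100000, a mean of 4.25 ± 1.04 (SD, n = 3), rank 3987, between Cd83 and Rps6ka1. The region also overlapped Gm13061.

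Lin28b, at chr10:45376620-45486395 on the minus strand, is 110 kb long, with its protein-coding start site at 45470201. It had 0 peaks in all 3 replicates, as did 47.2% of genes of its length class in the body and 5 kb on either side. No peak was near it. It lay in a stretch without peaks of 726 kb in replicate 1, 1205 kb in replicate 2 and 780 kb in replicate 3. The nearest peaks on its upstream side were 319, 320 and 296 kb from the gene. Of all protein-coding genes, 18.3% were at least as far from a peak as Lin28b in each of the 3 replicates. The paired Lin28 genes thus differed in the peak lists, with a peak over the start site of Lin28a and none within 296 kb of Lin28b.

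Igf2bp1, at chr11:95957163-96005940 on the minus strand, is 48.8 kb long with 15 exons. It held 2, 2 and 3 peaks, all in intron 2, an intron of 24.6 kb. The stronger region, chr11:95987135-95994702, stood at percentile 95.2, 93.2 and 93.3, a mean of 93.9 ± 1.14 (SD, n = 3), with little difference between replicates. Its highest pileup differed in place, at 95992886 in replicate 1 and at 95989630 and 95989457 in replicates 2 and 3.

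The other shared region, chr11:95979977-95985679, stood at percentile 86.6, 83.4 and 75.3. Its highest pileup was at 95982911 to 95982912 in every replicate, the bases in capitals in the first window above. A spread of 10 bp or less in all 3 replicates was found in 6.95% of 8916 shared regions, of which this region and the one at exon 3 of Hmga2 were members. The median spread was 514 bp over all shared regions and 212 bp over the 11 of these genes.

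For the stronger region the log2 ratio of replicate 3 to replicate 2 came to -0.17, against -0.58 in its GC bin, and -0.44 in the other, against -0.15.

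The third Igf2bp1 peak was called in replicate 3 alone, at chr11:96000306-96003075, 2.87 kb downstream of the start site and at percentile 12.4. As with the added peak of Hmga2, its GC content was low, at 40.5%, and 7.26% of all regions were lower. Without it, the nearest peak to the start site was 11.2 and 11.6 kb away in replicates 1 and 2.

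The signal of Igf2bp1 was 28.1, 29.8 and 27.7 per 100000, a mean of 28.5 ± 1.10 (SD, n = 3). It ranked 963, between Mad1l1 at 28.6 and Jmjd1c at 28.5, and above 96.5% of genes of 20 to 80 kb. Peaks covered 24.3, 26.6 and 27.5% of its body.

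Igf2bp3, at chr6:49085223-49214957 on the minus strand, is the longest of the 7 genes at 130 kb. In each replicate it held 1 peak, at its 5′ end, in the merged region chr6:49207823-49212496. The edge facing the start site was at 49212486 in replicates 1 and 2 and at 49212496 in replicate 3, 2.46 to 2.47 kb from the start site. Its percentiles were 66.4, 63.4 and 77.1, a mean of 69.0 ± 7.18 (SD, n = 3). The signal was 4.78, 5.96 and 8.38 per 100000, a mean of 6.37 ± 1.84 (SD, n = 3), rank 3185, between Jpt1 and Tmem117.

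Replicate 3 was the highest for Igf2bp3, with a peak of 4674 bp against 2507 and 2536 bp. The region had a GC content of 43.3% and a log2 ratio of replicate 3 to replicate 2 of 0.49, against 0.61 in its bin. Peaks covered 2.5 ± 0.958% (SD, n = 3) of the body of Igf2bp3, against 46.5% for the shorter Hmga2.

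Igf2bp2, at chr16:22059009-22163299 on the minus strand, is 104.3 kb long. It had 1 peak in replicate 1 and 0 in replicates 2 and 3. That peak, chr16:22149730-22151314, is 1585 bp long, lies in intron 2 some 10.1 kb from the nearest start site and stood at percentile 21.7. Its total signal was 1.27 times that of the weakest peak of replicate 1. In replicates 2 and 3 the gene lay within stretches without peaks of 799 and 809 kb. In replicate 3 the nearest peak was 93.5 kb upstream, nearest to the start site of Tra2b. The signal of Igf2bp2 was 2.20 per 100000 in replicate 1 and 0 in the others, with Pacs1 next below it in rank by the mean.

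**Figure D3:**
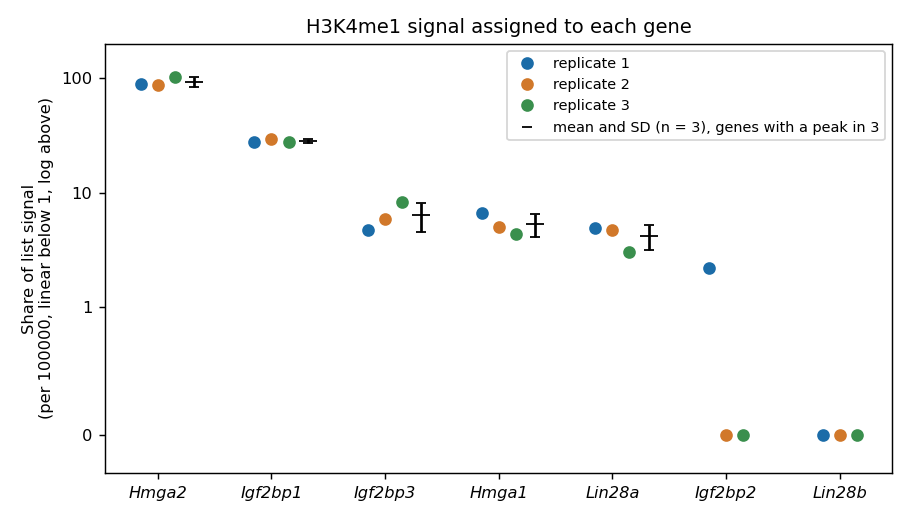
Share of list signal assigned to each gene, per 100000, on an axis that is linear below 1 and logarithmic above. Points are the 3 replicates, and bars give mean and SD (n = 3) for genes with a peak in all of them. Hmga2, from 87.7 to 103.9, and Igf2bp1, from 27.7 to 29.8, stand clear of the rest.

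In order of mean share the genes were Hmga2, Igf2bp1, Igf2bp3, Hmga1, Lin28a, Igf2bp2 and Lin28b. Hmga2 was above Igf2bp1 in every replicate, with a lowest value of 87.7 against a highest of 29.8. Igf2bp1 was above Igf2bp3, 27.7 against 8.38 on the same count. The ranges of Igf2bp3 and Hmga1 overlapped, and Igf2bp3 was the higher in 2 of 3 replicates. The ranges of Hmga1 and Lin28a also overlapped, although within each replicate Hmga1 was the higher, in 3 of 3. Lin28a, at 3.06 or more, was above Igf2bp2, at 2.20 or less. These shares add up over the length of a gene. Among genes of 80 to 160 kb, Hmga2 was above 97.9%, Igf2bp3 above 69.4% and Igf2bp2 above 46.1%, and the part of gene length in the order was not tested.

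**Figure D4:**
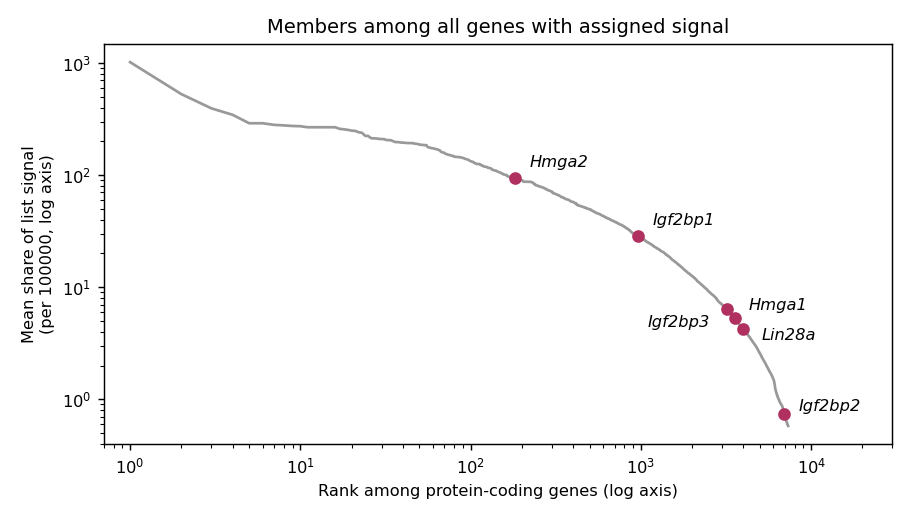
Mean share of list signal (per 100000, log axis) against rank among protein-coding genes (log axis). The grey line is all genes with signal and the points are the genes examined, from Hmga2 at rank 183 to Igf2bp2 at rank 6932, with Lin28b left out because its share was 0.

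**Figure D5:**
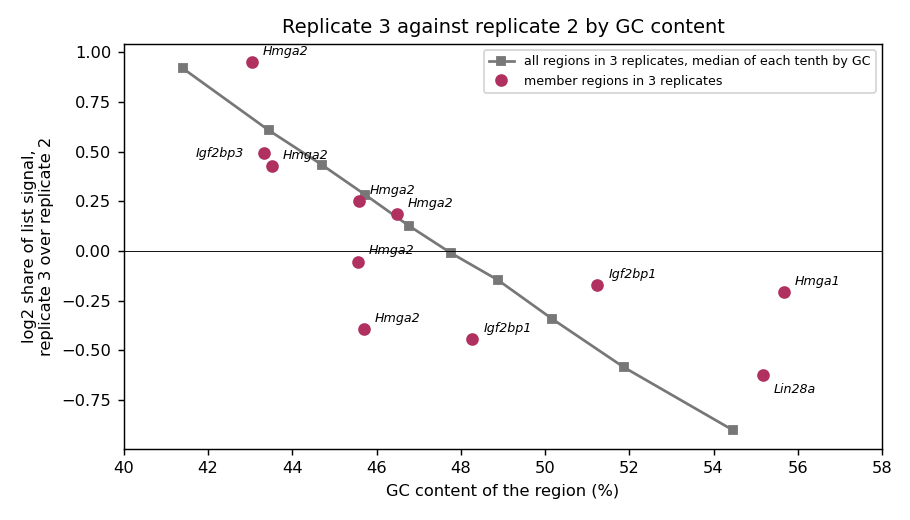
The log2 ratio of the share of signal in replicate 3 to that in replicate 2 against GC content (%). Squares are medians of 10 bins of all shared regions by GC content and points are the 11 shared regions of the examined genes, from 0.95 near exon 3 of Hmga2 to -0.63 at Lin28a.

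Promoter sequences from RefSeq, 300 bases each around the start, matched 6 of the 7 genes, all but Igf2bp1. Their GC content was 74.0% for Hmga1, 57.7% for Hmga2, 63.3% for Lin28a, 39.0% for Lin28b, 76.7% for Igf2bp2 and 60.3% for Igf2bp3, against a median of 57% over 16433 genes. Lin28a, with the peak over its start site, had the lowest ratio of observed to expected CpG among the 6, at 0.351. The others had 0.544 to 1.09, and the median over all genes was 0.601.

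The 3′ untranslated regions (UTRs) of the 7 genes were read for the let-7 seed match, a feature that the choice of peaks did not use. Since let-7 represses members of all 3 families, the choice of genes itself favours matches, and their share is no independent finding. All 8 mature let-7 microRNAs in the RefSeq table, such as let-7a, share the seed at bases 2 to 8, in capitals here.
mmu-let-7a-5p: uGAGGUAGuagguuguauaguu
mmu-let-7g-5p: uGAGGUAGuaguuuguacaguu
Its complement, CTACCTC, was in the longest annotated 3′ UTR of 7 of 7 genes, against 9.06% of 20732 genes with a 3′ UTR and 17.7% of the 7378 genes whose 3′ UTR has 1500 bases or more. There were 4 matches each in Hmga2, Lin28b and Igf2bp1, 2 in Lin28a and 1 each in Hmga1, Igf2bp2 and Igf2bp3. As many as 4 put a gene above 99.9% of the others, counted over UTRs of any length. The UTRs with 4 were 3014 bases long in Hmga2, 4445 in Lin28b and 6337 in Igf2bp1. Per kb they held 1.33, 0.900 and 0.631 matches, against 0.472 (Igf2bp3) to 0.845 (Hmga1) in the other genes. A site of each gene is given on its transcribed strand, with the match in capitals.
Hmga1, chr17:27563277-27563299: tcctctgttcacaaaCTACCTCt
Hmga2, chr10:120364224-120364246: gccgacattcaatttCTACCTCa
Lin28a, chr4:134005189-134005211: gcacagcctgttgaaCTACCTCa
Lin28b, chr10:45381022-45381044: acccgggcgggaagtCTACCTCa
Igf2bp1, chr11:95961778-95961800: gctgtgcgaagtaaaCTACCTCa
Igf2bp2, chr16:22059473-22059495: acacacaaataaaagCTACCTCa
Igf2bp3, chr6:49086787-49086809: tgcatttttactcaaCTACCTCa
The match is followed by an A, as in the stronger class of microRNA site, in each of these but that of Hmga1. Over all sites of the 7 genes it was 9 of 17, with 1 of 4 in Hmga2, 1 of 4 in Lin28b and 3 of 4 in Igf2bp1. The share of matches followed by an A over the 3′ UTRs of all genes is not given here. Genes with 4 matches were found at both ends of the order by H3K4me1, with Hmga2 first and Lin28b last. A match is a description of sequence and shows no repression in these pads.

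The genes for let-7 itself differed between replicates. Of 11 let-7 genes, 3, 1 and 6 had a peak in the hairpin or the 5 kb on either side in replicates 1, 2 and 3, against 13.8, 12.2 and 9.93% of 2196 annotated miRNA genes. Mirlet7e had one in all 3, at percentile 89.1, 87.7 and 79.6. This is 1 of 11, against 6.92% of annotated miRNA genes. A peak in at least 1 replicate was found for 6 of 11, while Mirlet7a-2, Mirlet7b, Mirlet7c-1, Mirlet7c-2 and Mirlet7f-2 had none in any replicate. The share of annotated miRNA genes with a peak in at least 1 replicate is not given here. Mirlet7i was counted on peaks at percentile 2.02 in replicate 1 and 14.3 in replicate 3, low in both lists. The higher count of replicate 3 included 3 clustered genes, Mirlet7a-1, Mirlet7d and Mirlet7f-1, that share 1 peak, so they are not separate observations.

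Other genes of the Lin28 and let-7 pathway were taken as a list of 25. Of these, 14, 14 and 9 had a peak in the body or the 5 kb on either side in replicates 1, 2 and 3. The shares over all protein-coding genes were 24.9, 22.6 and 19.6%. In all 3 replicates the count was 9 of 25 (36%), against 15.5% of all protein-coding genes. Longer genes held peaks more often, as given above, and the list was not compared with genes of like length. The count was 14 without replicate 3 and 5 with the stronger 50% of each list, and the shares of all genes at these settings are not given here. Dicer1 and Ago2, which make and use mature microRNAs, were among the 9 genes. Percentiles and peak numbers of single pathway genes cover all peaks assigned to them, which can lie up to 100 kb away. The strongest peak of Dicer1 stood at percentile 96.7, 93.9 and 96.7, and that of Ago2 at 87.0, 80.3 and 41.3. Dgcr8, the partner of Drosha in cutting the primary transcript, had percentiles from 50.9 to 67.0, while Drosha itself had no peak.

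Tut7, which adds uridines to let-7 precursors held by Lin28, and Dis3l2, which degrades them, each had a peak in all 3 replicates. So did Trim71, itself a let-7 target. Of the downstream genes, Igf1r, the receptor for Igf1 and Igf2, held 19, 15 and 17 peaks with the strongest at percentile 93.1, 90.9 and 92.3. Arid3b and the cell cycle kinase Cdk6 also had a peak in all 3.

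Of the 25 genes of the list, 11 had no peak in the body or the 5 kb on either side in any replicate. Over all protein-coding genes the share without one was 71.2%, so such absence was less frequent in the list. Among the 11 were Drosha, Xpo5 and Tut4 of the microRNA machinery, and Myc, Cdc25a, Cdc34 and E2f6 of the let-7 targets. Myc had 1 peak farther out in each replicate, up to 100 kb away, with its start site as the nearest one.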

How the data were processed

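H3K4me1 CUT&Tag of 3 whisker pads was analysed. Per the labels, the submitters' processing notes name Bowtie2 2.3, SAMtools 0.1.19, bedtools, SEACR 1.3 and mm10. The authors called peaks in each replicate with SEACR, stringent, without IgG, keeping the top 1%. The deposited signal columns (total and maximum fragment pileup per peak) held whole numbers not scaled to depth and no read numbers. The study states a nominal depth, and the depth each library reached was not measured here. The treatment of duplicate reads is not given in the sources used here.

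Peaks were assigned with Python 3.11.15 and numpy 2.4.6 to GENCODE vM21 basic genes, with 41135 protein-coding start sites. All peaks ended within GRCm38 chromosome lengths. Peaks overlapping by at least 1 bp were merged into regions, and the scripts were tested on simulated data. Coordinates are 1-based. Titles set the groups. The members, lists and alternatives were chosen with earlier results of these data known. All 7 genes are named, with the strongest region, the region nearest the start site, and single-replicate regions of genes with 3 regions or fewer. Pathway genes are named when in 3 or 0 replicates, and neighbours are those next in rank by signal. The other Hmga2 regions were chosen for description after their values were seen. Nothing states separate litters, and SDs measure the spread between these samples. Some genes that the lists and the naming rule cover are not reported here by name, although they stay in the counts.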

Additional observations from a re-analysis of the deposited data

How the results depend on the processing

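For 17 results, 107 values were recomputed under alternatives, of which 94 stayed within the replicate spread or within 1.5 times of the count, and 13 moved. With the stronger 50% of each list, so with fewer peaks, 3 of the 7 genes had a peak in all replicates in place of 5, 7 regions in place of 11, 0 start sites in place of 1, and 5 pathway genes in place of 9. With 2.5 kb around start sites, 3 genes had a peak there in all replicates. The shares of all protein-coding genes under these alternatives are not given here. Leaving out each replicate gave 9 to 14 pathway genes, the 14 without replicate 3, and 5 of the 7 genes each time. It gave 13 to 17 regions, 11 to 12 of them in all replicates, and 1 start site. Of the single genes, 7 values moved. Hmga2 had a mean of 7.33 peaks when those less than 1 kb apart were joined, and 8 with the reach at 50 kb or with the gene body and 5 kb only. By signal divided by length its highest percentile was 86.2 and that of Igf2bp3 82.0, and that of Lin28a went from 45.6 to 23.7, within its replicate spread. By maximum signal Igf2bp1 stood at 82.6 and Igf2bp3 at 76.4. The use of the comprehensive annotation was added after seeing the data and left 16 regions, 11 in all replicates. No paired analysis was possible because H3K4me1 was the sole group analysed here, and IgG, which has the same replicate numbers, was left out. The lists hold no read numbers, so absence of a peak in Lin28b and Igf2bp2 is a statement about the top 1% of signal blocks and not about the mark.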
